A study of Mus musculus with 768 samples.

Results

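The 10 genes described here are the immediate early genes Fos, Fosb, Jun, Junb, Egr1, Dusp1 and Ier2 and the 3 Nr4a genes Nr4a1, Nr4a2 and Nr4a3. They were chosen by symbol, not by their values, and are 10 of 24490 entries measured in single tumor-infiltrating NK cells. Each entry is a gene with its RPKM, the reads per kilobase of transcript scaled to the mapped reads of the well, in every well of a plate, and a gene is called present in a cell where its RPKM is above 0. The members were followed over the 726 of 768 wells that had between 1000 and 3500 genes above 0, counting genes above 0 in at least 3 wells.

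Immediate early genes are transcribed within minutes of a stimulus, without new protein synthesis, and their transcripts are short-lived. In lymphocytes, calcium and MAP kinase signals downstream of activating receptors switch them on. The paper states that after harvest the tumors were rapidly processed and stained before cells were sorted into lysis buffer. The part of this handling in the shares, levels and co-detection of these genes was not tested. Fos, Fosb, Jun and Junb encode subunits of the dimeric transcription factor AP-1. Egr1 is a zinc finger transcription factor, Nr4a1, Nr4a2 and Nr4a3 are orphan nuclear receptors, Dusp1 is a phosphatase that inactivates MAP kinases, and Ier2 is a small nuclear protein of the same early program. Xcl1 is a chemokine that attracts cross-presenting dendritic cells, Ccl3 and Ccl4 are inflammatory chemokines, Ifng is interferon gamma, and Pdcd1 encodes the inhibitory receptor PD-1.

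The cells came from MTAP1A tumors, a fibrosarcoma line that arose in skin of a mouse without Tap1 and is therefore low in MHC class I, grown in C57BL/6 male WT or PD-1-/- mice aged 8 to 12 weeks. Tumors of 3 mice were pooled for each genotype, and viable cells that were, among other gates, NK1.1+ CD3- GR1- were sorted into 1 plate per genotype. Genotype, pool and plate therefore cannot be told apart, each genotype is 1 sample, and no test between genotypes was possible. The PD-1-/- allele lacks exons 3 and 4 of Pdcd1, so that a Pdcd1 transcript can still be counted in PD-1-/- cells. The intervals given with shares are exact Clopper-Pearson 95% intervals over cells, and they cover counting error only, since the reads carry no molecular identifiers and the cells of a plate are not replicates.

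Of the 726 kept wells 360 were on the WT plate and the rest on the PD-1-/- plate, and shares are over these cells. The labels speak of 382 sorted NK cells. The kept cells had a median of 2264.5 genes above 0 in WT and 2262.5 in PD-1-/-, and a median of 332572 and 355026 recovered reads. On average a cell held 7.28 of 8 NK markers in WT and 7.20 in PD-1-/-. Of 10 T cell markers, which include Cd3d, Cd3e and Cd3g, a cell held 0.461 in WT and 0.604 in PD-1-/- on average, although the sort excluded CD3+ cells. Of 5 myeloid markers it held 0.147 and 0.079. Plate rows A and B of the WT plate stood apart, since they held all 9 WT cells with Pdcd1, so the main WT values are also given without these rows.

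Upstream sequences are shown for Nr4a1, Nr4a2 and Nr4a3, whose 3 pairs all had a phi of at least 0.1 on both plates (phi, the correlation of presence over cells, is given with the pairs), with Dusp1 and Jun for contrast. Each is the 250 bases before the annotated start in RefSeq GRCm38.p6, read 5′ to 3′ in the direction of the gene. Capitals mark TGACG on either strand (TGACG or CGTCA), the core of the site that CREB and related factors bind, or the whole palindrome TGACGTCA where it is present.
Nr4a1, chr15:101266596-101266845, plus strand: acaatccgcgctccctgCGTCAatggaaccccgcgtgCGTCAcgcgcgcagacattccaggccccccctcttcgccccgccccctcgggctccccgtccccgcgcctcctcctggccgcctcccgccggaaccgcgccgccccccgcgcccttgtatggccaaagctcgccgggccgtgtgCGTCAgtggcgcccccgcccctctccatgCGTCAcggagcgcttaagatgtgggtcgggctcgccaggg
Nr4a2, chr2:57124004-57124253, minus strand: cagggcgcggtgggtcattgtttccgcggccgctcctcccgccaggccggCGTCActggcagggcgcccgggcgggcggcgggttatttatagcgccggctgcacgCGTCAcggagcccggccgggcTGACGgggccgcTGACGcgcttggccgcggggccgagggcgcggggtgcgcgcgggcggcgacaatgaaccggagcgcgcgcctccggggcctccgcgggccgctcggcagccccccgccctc
Nr4a3, chr4:48045055-48045304, plus strand: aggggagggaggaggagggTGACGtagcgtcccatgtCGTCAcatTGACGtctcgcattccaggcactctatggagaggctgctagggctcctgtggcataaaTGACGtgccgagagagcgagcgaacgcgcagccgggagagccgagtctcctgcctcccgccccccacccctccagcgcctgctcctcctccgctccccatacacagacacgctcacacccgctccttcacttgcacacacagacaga
Dusp1, chr17:26508473-26508722, minus strand: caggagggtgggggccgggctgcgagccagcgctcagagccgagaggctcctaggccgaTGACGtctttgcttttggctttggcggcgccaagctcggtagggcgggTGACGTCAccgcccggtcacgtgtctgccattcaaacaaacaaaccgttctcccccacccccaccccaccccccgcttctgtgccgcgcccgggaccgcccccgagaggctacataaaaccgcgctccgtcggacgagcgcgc
Jun, chr4:95052223-95052472, minus strand: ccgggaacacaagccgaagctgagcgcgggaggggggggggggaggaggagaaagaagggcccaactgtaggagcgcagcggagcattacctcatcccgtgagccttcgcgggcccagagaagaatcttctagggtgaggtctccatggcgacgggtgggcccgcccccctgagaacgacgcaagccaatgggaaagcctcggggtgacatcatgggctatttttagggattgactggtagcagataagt

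The windows of Nr4a1, Nr4a2 and Nr4a3 each held 4 copies of TGACG. Dusp1 held 3, counting both strands of its palindrome, and Jun held 0. Among 32851 promoter windows of the same length, 17.8% held at least 1 copy, 0.688% at least 3 and 0.137% at least 4. Base composition differed too, with 74.4% G or C in the Nr4a1 window, 80% in Nr4a2, 63.6% in Nr4a3 and 61.2% in Jun, against a median of 52.4% over all windows. Of the 10 genes, 8 were in the promoter table, all but Egr1 and Ier2. Of these, 7 held TGACG, which also lies within TGACGTCA, and 1, Dusp1, held the palindrome, present in 1.55% of all windows. The CArG box, which serum response factor binds, was found in 0 of 8 windows (1.47% of all windows) and the AP-1 site TGANTCA in 0 of 8 (6.75%). GGGCGG was found in 7 of 8 (32.7%) and TATAAA in 2, Fos and Nr4a2 (12.4%). All motifs were searched on both strands; these matches describe letters in the window, and TGACG was added to the search after the sequences had been seen.

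Junb and Ier2 were the members present in most cells of both plates. Junb was present in 74.4% of WT cells (69.6 to 78.9), with 1.36, 236.98 and 2423 RPKM as the lowest, median and highest level in cells that held it. On the PD-1-/- plate 300 cells held it, 81.97% (77.6 to 85.8), at 1.06, 192.3 and 1585 RPKM. Ier2 was found in 66.4% of WT cells (61.3 to 71.3) at a median of 163.3 RPKM. For PD-1-/- the share was 61.7% (56.6 to 66.8) and the median 158.8. These high shares set both genes apart from the other 8, none of which reached 32% of cells on either plate.

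Among the other AP-1 subunits, Jun was present in 31.4% of WT cells (26.6 to 36.5), and 73 cells held it on the PD-1-/- plate, 19.9% (15.97 to 24.4). Its level in the cells that held it ran from 0.829 over a median of 101.9 to 1067 RPKM in WT and from 0.660 over 72.1 to 1161 in PD-1-/-. The share with Fos was 19.4% in WT (15.5 to 23.9) and 16.9% in PD-1-/- (13.2 to 21.2). Cells with Fos had much of it: the median was 191.1 RPKM in WT and 158.2 in PD-1-/-, and the highest cells reached 2542 and 3268. Fosb was both rarer and lower, at 11.7% of WT cells (8.54 to 15.4) with a median of 21.9 RPKM and at 5.46% of PD-1-/- cells (3.37 to 8.31) with a median of 23.6. The highest Fosb level in a cell of either plate was 106.2 RPKM. Of the exonic bases of Jun 7.28% overlap the antisense gene Junos, and 7.52% of those of Junb overlap Prdx2 on the opposite strand, and reads from such pairs cannot be told apart without strand.

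Dusp1 resembled Jun in WT, with 31.7% of cells (26.9 to 36.7) at a median of 154.2 RPKM, and had 28.4% (23.8 to 33.3) and a median of 102.1 in PD-1-/-. Its highest WT cell had 3723 RPKM and its highest PD-1-/- cell 1206. Egr1 was present in 42 cells of each plate, 11.7% of WT (8.54 to 15.4) and 11.5% of PD-1-/- (8.40 to 15.2), with medians of 77.1 and 85.9 RPKM in those cells. The 5 highest cells held 55.2% of all Egr1 RPKM in WT and 56.96% in PD-1-/-, so its mean rested on few cells.

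The Nr4a genes were present in few cells, and their levels spread widely between them. Nr4a1 was present in 36 WT cells, 10% (7.10 to 13.6), between 1.42 and 1138 RPKM with a median of 120.5. On the other plate it was present in 22 cells, 6.01% (3.80 to 8.96), between 1.52 and 2180 RPKM with a median of 191.7. Nr4a2 was also present in 36 WT cells, 10%, between 0.939 and 943 RPKM with a median of 16.9, and in 47 PD-1-/- cells, 12.8% (9.59 to 16.7), between 0.663 and 1471 with a median of 33.3. Many Nr4a2 cells held little of it: 17 of 36 in WT and 26 of 47 in PD-1-/- had 10 or more reads, by an approximate read count. Nr4a3 was the rarest member, with 18 WT cells, 5.0% (2.99 to 7.79), and 14 PD-1-/- cells, 3.83% (2.11 to 6.33), and the 5 highest cells held 79.1% and 86.1% of its sum. At least 1 Nr4a gene was present in 19.2% of WT cells and 17.5% of PD-1-/- cells.

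**Figure D1:**
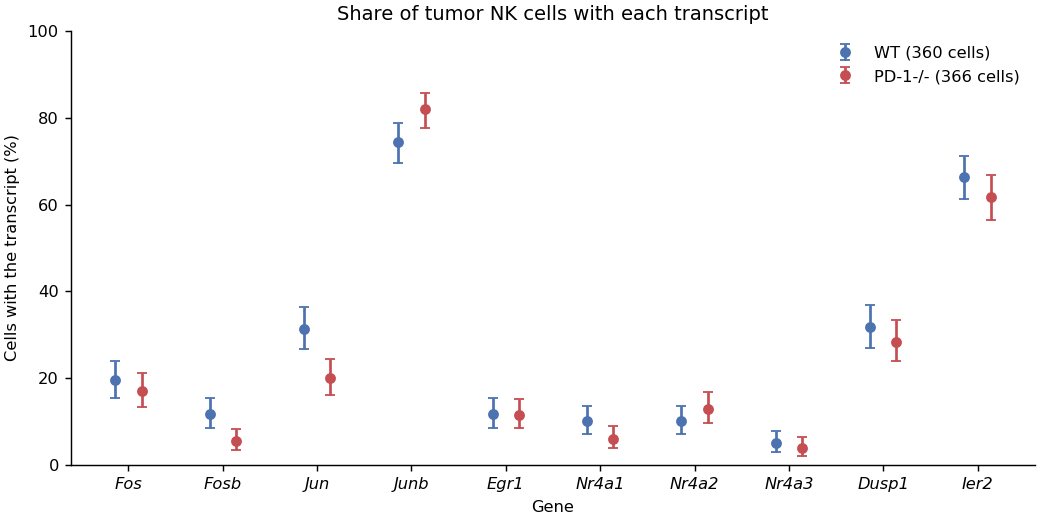
Percent of kept cells in which each of the 10 genes was above 0 RPKM, for the WT plate (360 cells) and the PD-1-/- plate, with bars for exact 95% intervals over cells. Junb and Ier2 lie above 60% on both plates, and Jun and Fosb lie lower on the PD-1-/- plate (19.9% and 5.46%) than on the WT plate (31.4% and 11.7%).

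**Figure D2:**
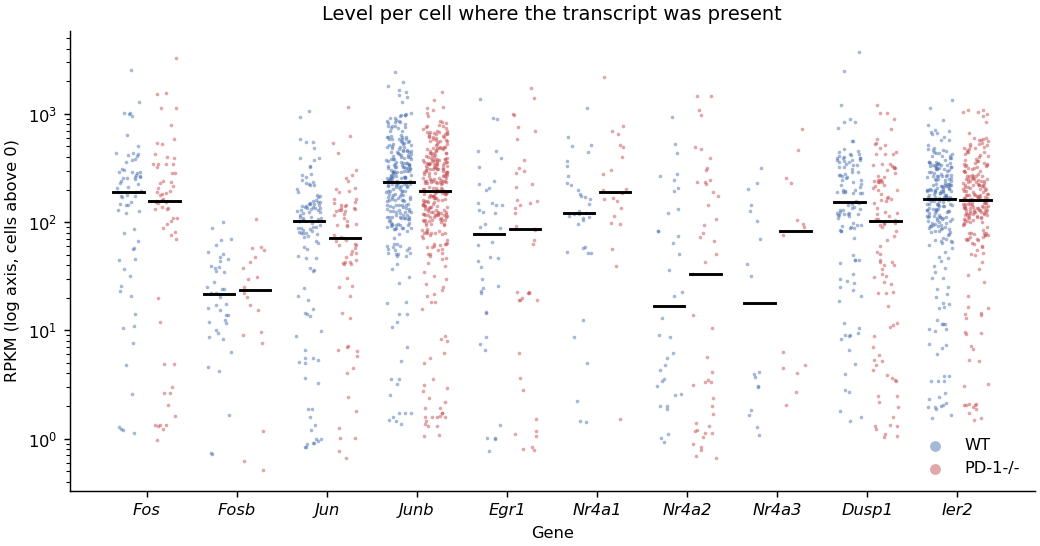
Level of each gene in RPKM, on a log axis, in each cell that held it, with points for WT and PD-1-/- cells and a black bar at the median. Each gene runs from a few RPKM or less to well above its median on both plates, Junb and Ier2 have most of the points, and Fosb peaks at 106.2 RPKM.

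Between the plates, 8 of the 10 genes had a lower share in PD-1-/- than in WT, where 51.3% of 9926 entries present in at least 3% of cells of one plate did. On the log2 scale of mean RPKM with a pseudocount of 1, 3 members were at least 1.5-fold higher in WT, where 14% of 12030 entries with a mean of at least 1 RPKM were. These were Jun, at -0.82 (mean 42.6 RPKM in WT and 23.7 in PD-1-/-), Fosb, at -0.71 (3.30 and 1.63), and Dusp1, at -0.69 (84.3 and 51.8). The 2 AP-1 subunits were lower in PD-1-/- by share as well. The share of the MAP kinase phosphatase Dusp1 was only slightly lower, at 31.7% in WT and 28.4% in PD-1-/-. For Dusp1 it was 29.2% and 28.8% over rows A to H, and 34.07% and 28.02% over rows I to P.

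In the other direction, 1 member, Nr4a2, was at least 1.5-fold higher in PD-1-/-, at 1.13 (24.7 against 10.7 RPKM), where 11% of all entries were. Fos, at -0.09, and Ier2, at -0.01, were nearly level. The median over the 10 members was -0.05 and over all entries -0.03. For Junb (-0.17), Egr1 (0.44), Nr4a1 (0.15) and Nr4a3 (0.53) the ratio of means went against the order of the shares, and no order is read for them.

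The differences in Jun, Dusp1 and Nr4a2 stayed past 1.5-fold in all 9 other settings tried. Jun ran from -1.04 to -0.60, Dusp1 from -0.79 to -0.60 and Nr4a2 from 0.74 to 1.96, with the highest value of Nr4a2 found without plate rows A and B. The mean of Nr4a2 rested on few cells, which these settings largely share. Its 5 highest cells held 63.5% of its sum in WT and 60.8% in PD-1-/-. Fosb ran from -0.98 to -0.19 and was past 1.5-fold in 7 of the 9. After each cell was thinned to 100000 reads, Jun was present in 27.8% of cells on the WT and 18.5% on the PD-1-/- plate, Fosb in 11.9% and 4.83%, Dusp1 in 31.04% and 24.1%, and Nr4a2 in 8.36% and 9.38%. Fos, Junb, Nr4a1, Nr4a3 and Ier2 had ratios of opposite sign in the upper and lower rows of the plates. For Nr4a3, for example, the ratio was 0.97 over rows A to H and -0.41 over rows I to P.

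A WT cell held a median of 3 of the 10 genes and a mean of 2.72, and a PD-1-/- cell a median of 2 and a mean of 2.49. None of the 10 was present in 15 WT and 14 PD-1-/- cells, and no cell held more than 8. In WT, 46 of 360 cells held 5 or more, 12.8% (9.51 to 16.7), against 26 cells, 7.10% (4.69 to 10.2), on the PD-1-/- plate. WT rows A and B held 10 of these 46 cells among 38 wells, 26.3% (13.4 to 43.1), and in rows C to P the share was 11.2% (7.95 to 15.1). On the PD-1-/- plate rows A and B gave 3 of 45 cells, 6.67%, and rows C to P 7.17%.

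The number of genes held moved with measures of depth, by rank only slightly. The Spearman correlation over cells between that number and the recovered reads was 0.03 in WT (360 cells) and 0.16 in PD-1-/-, and with the genes above 0 it was 0.17 and 0.09. Split at the median of genes above 0, 17.2% of the WT cells above it held 5 or more of the 10, against 8.33% at or below it, and 7.65% against 6.56% on the PD-1-/- plate. Cells with 5 or more of the 10 had a median of 320422 reads in WT and 392356 in PD-1-/-, and cells with 0 to 2 had 328350 and 340642. The mean number of genes per cell in a plate row ran from 1.96 to 3.35 in WT and from 2.08 to 3.09 in PD-1-/-. Cells with a Cd3 transcript held 5 or more of the 10 in 13.8% of WT cells, against 12.5% without one. In PD-1-/- these shares were 6.02% and 7.42%.

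The cell with the most genes in WT held 8, all but Junb and Egr1, with 1297 RPKM of Fos and 2508 of Dusp1. In PD-1-/-, 2 cells held 8 genes, and 1 of them lacked Egr1 and Nr4a2 and the other Fosb and Egr1. The latter had 1635 RPKM of Ifng, 17768 of Ccl4, 1089 of Nr4a2 and 1135 of Junb. None of the 3 cells held Egr1 or Pdcd1.

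Co-detection was described by phi, the correlation of presence and absence of a pair of genes over the cells of a plate. Over the 45 pairs of members the median phi was 0.06 on both plates, against 0.03 over all pairs of genes present in at least 10% of cells. A phi of at least 0.1 on both plates was found for 6 of 45 pairs, 13.3%, where 1.68% of all such gene pairs had it, and 1.01% of pairs of genes in at least 3% of cells. All 6 held an Nr4a gene. They were the 3 pairs among Nr4a1, Nr4a2 and Nr4a3, the pairs of Egr1 with Nr4a1 and with Nr4a2, and Fos with Nr4a2.

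Nr4a1 and Nr4a2 formed the closest pair, with a phi of 0.32 in WT and 0.28 in PD-1-/-. In WT, 14 of 36 cells with Nr4a1 also held Nr4a2, 38.9%, against 6.79% of cells without Nr4a1. In PD-1-/- it was 11 of 22 cells, against 10.5%. It was the single pair of members with a phi of at least 0.2 on both plates, where 0.0144% of pairs of genes in at least 3% of cells had one, and 0.0287% in at least 10%.

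Nr4a1 and Nr4a3 had a phi of 0.14 and 0.31, Nr4a2 and Nr4a3 0.18 and 0.22, Egr1 and Nr4a1 0.14 and 0.23, Egr1 and Nr4a2 0.11 and 0.17, and Fos and Nr4a2 0.16 and 0.15, in WT and PD-1-/-. Thinning to 100000 reads gave 7 such pairs, but left Nr4a1 with Nr4a3 at 0.05 and Nr4a2 with Nr4a3 at 0.07 in WT. The number of such pairs was 11 over plate rows A to H, 3 over rows I to P and 5 without rows A and B. The AP-1 subunits showed no such pattern on both plates. Of the 6 pairs among Fos, Fosb, Jun and Junb, 0 reached 0.1 on both, with Fosb and Jun at 0.16 and 0.09, Fos and Fosb at 0.02 and 0.18, and Jun and Junb at -0.07 and -0.05.

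All 3 Nr4a genes were present in 4 WT and 5 PD-1-/- cells. Across these 9 cells, Nr4a1 ran from 12.5 to 521 RPKM, Nr4a2 from 2.54 to 1471 and Nr4a3 from 1.07 to 724. Within a cell the 3 levels could lie close together, at 114.1, 107.7 and 90.8 RPKM in 1 PD-1-/- cell. They could also lie far apart, at 222.04, 2.54 and 1.07 RPKM in 1 WT cell. Fosb was present in 1 of the 9.

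**Figure D3:**
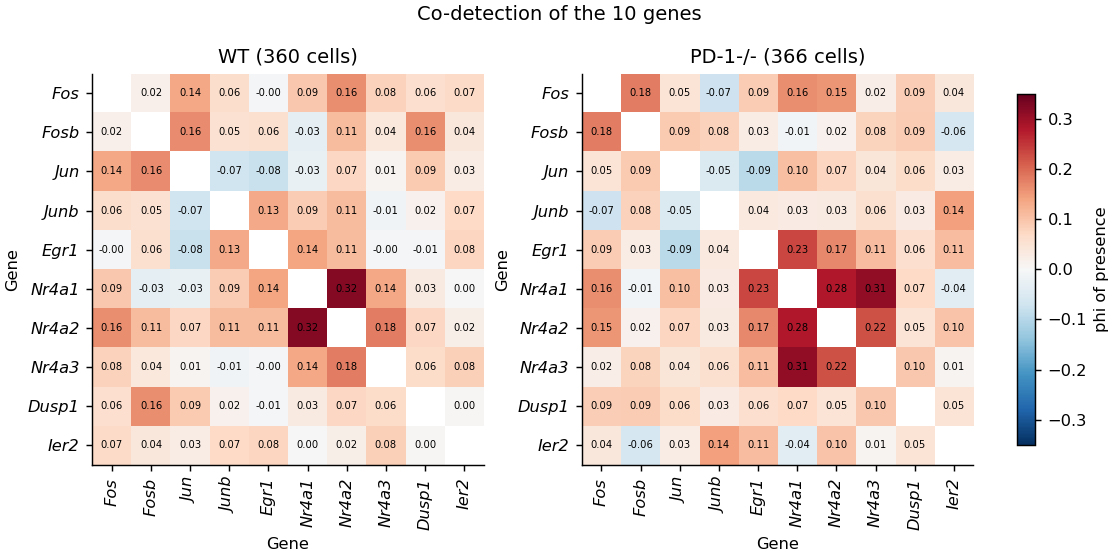
Phi of presence, from blue for negative to red for positive values, for each of the 45 pairs of the 10 genes, in 360 WT cells and in the PD-1-/- cells. The pairs among Nr4a1, Nr4a2 and Nr4a3 and those of Egr1 with Nr4a1 and Nr4a2 lie above 0.1 on both plates, while the pairs among Fos, Fosb, Jun and Junb do not.

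Xcl1 went with the number of the 10 genes on both plates. Its mean level was 1129 RPKM in WT cells with 0 to 2 of the genes, 1371 in those with 3 to 4 and 4244 in those with 5 or more. In PD-1-/- cells the means were 813, 1391 and 4680 RPKM. The medians behind the outer groups were 493 and 1625 RPKM in WT and 249.03 and 1491 in PD-1-/-, so the order did not rest on a few extreme cells alone. Without the highest cell of each group the means were 1053 and 3556 in WT and 785 and 3774 in PD-1-/-. Over rows C to P the medians were 427 and 1517 in WT and 265.4 and 1257 in PD-1-/-.

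The share of cells with Xcl1 differed less than its level: 84.8% of WT cells with 5 or more held it (71.1 to 93.7), against 73.7% with 0 to 2 (66.4 to 80.1). In PD-1-/- the shares were 92.3% (74.9 to 99.1) and 63.6% (56.5 to 70.3). The log2 ratio of mean Xcl1 between the outer groups was 1.91 in WT and 2.52 in PD-1-/-, and ran from 1.14 to 2.84 and from 1.06 to 3.10 over the alternatives. The difference in share depended on how many genes a cell showed. It was -3.14 points in WT and 17.3 in PD-1-/- among cells above the median of genes above 0, and 27.4 and 37.96 points among the others. Without rows A and B the WT shares were 86.1% and 71.3%.

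Among the single members, the higher Xcl1 level was seen in cells with Egr1 or an Nr4a gene. Mean Xcl1 was at least 2-fold higher on both plates in cells with the gene than in cells without it for 4 of the 10 members, where 0.678% of 9294 genes present in at least 3% of cells had that. The fold was 4.72 in WT and 6.12 in PD-1-/- for Nr4a3, 3.17 and 4.69 for Nr4a1, 3.28 and 3.87 for Nr4a2, and 2.23 and 4.40 for Egr1. For the other 6 members it lay between 0.88 and 1.78. In rows C to P the same 4 genes were at 3.99, 3.23, 3.56 and 2.04 in WT and at 6.01, 4.59, 4.304 and 4.68 in PD-1-/-. The comparison and its 2-fold limit were chosen after the values had been seen.

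In the 17 WT cells with 2 or 3 Nr4a genes Xcl1 averaged 7942 RPKM, against 1211 in cells with none, and on the PD-1-/- plate 7427 in 14 cells against 844. Without the highest cell of each group the means were 6239 against 1130 and 5897 against 825. Of the 17 WT cells 4 lay in rows A and B, and over rows C to P the means were 7881 against 1081.

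Ifng was present in 20 of 46 WT cells with 5 or more of the genes, 43.5% (28.9 to 58.9), and in 40 cells with 0 to 2, 23.4% (17.3 to 30.5). In PD-1-/- the shares were 9 of 26, 34.6% (17.2 to 55.7), and 55 cells, 27.8% (21.7 to 34.6), and the intervals of the outer groups overlap on both plates. Over rows C to P the WT shares were 14 of 36 cells, 38.9%, and 22.7%. The WT difference of 20.1 points was 36.3 over plate rows A to H and 3.16 over rows I to P, and the PD-1-/- difference of 6.84 points was -4.76 in cells above the median of genes above 0. The share of cells with Ifng was higher in cells with the gene for 10 of 10 members in WT and for 9 of 10 in PD-1-/-, all but Fosb, where it was for 48.2% and 53.9% of genes present in at least 3% of cells. The differences were small: no member reached a phi of 0.1 with Ifng on both plates, which 0.156% of genes did. Cells with Ifng held a mean of 3.02 of the 10 genes in WT against 2.61 in cells without it, and 2.72 against 2.38 in PD-1-/-.

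Pdcd1 showed no common direction. It was present in 2 of 46 WT cells with 5 or more of the genes, 4.35% (0.53 to 14.8), and in 5 cells with 0 to 2, 2.92% (0.96 to 6.69). In PD-1-/- it was present in 2 of 26, 7.69%, and in 24 cells with 0 to 2, 12.1%. WT rows C to P held no cell with Pdcd1 in any of these groups. Of the WT cells with 2 or 3 Nr4a genes 0 of 17 held it, and 3 cells, the limit set on a count of 0, would be 17.6% of them (the exact interval reaches 19.5%). No member reached a phi of 0.1 with Pdcd1 or with Xcl1 on both plates, where 1.33% and 5.22% of genes did.

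Among the chemokines that were set beside these after their values had been seen, Ccl4 and Ccl3 went with the number of the 10 genes on both plates. Ccl4 was present in 52.2% of WT cells with 5 or more (36.95 to 67.1) and 24.6% with 0 to 2 (18.3 to 31.7), and in 57.7% and 33.3% of PD-1-/- cells. Ccl3 was present in 43.5% and 16.4% in WT and in 42.3% and 17.7% in PD-1-/-. Leaving out rows A and B gave WT shares of 47.2% and 22.7% for Ccl4 and 38.9% and 14.7% for Ccl3.

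A phi of at least 0.1 on both plates was reached with Ccl4 by 3 members, Egr1, Nr4a1 and Ier2, and with Ccl3 by 2, Egr1 and Nr4a1. Among genes present in at least 10% of cells of each plate, which leaves out Nr4a1, the members number 2 and 1, and 0.266% of all such genes reached it for each chemokine. Ccl3 was present in 18 of 36 WT cells with Nr4a1 against 16.05% without it, and in 54.5% against 21.8% in PD-1-/-. With Egr1 it was 30.95% against 17.9% in WT and 59.5% against 19.1% in PD-1-/-. Jun went the other way with Ccl4, since it was present in 25.7% of WT cells with Ccl4 and 33.6% without, and in 18.4% and 20.9% in PD-1-/-.

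**Figure D4:**
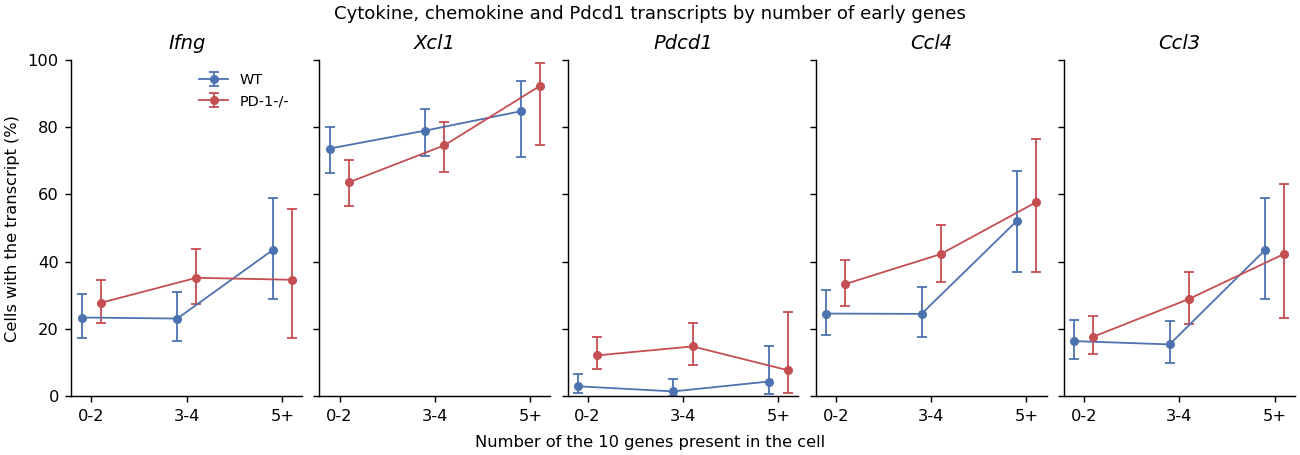
Percent of cells with Ifng, Xcl1, Pdcd1, Ccl4 and Ccl3 by the number of the 10 genes in the cell (0 to 2, 3 to 4, 5 or more), for each plate, with exact 95% intervals over cells. Xcl1 is present in 73.7% and 84.8% of the outer WT groups and in 63.6% and 92.3% of the outer PD-1-/- groups, and Pdcd1 shows no common order.

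Other early response genes were compared between cells with 2 or 3 Nr4a genes and cells with none. A share at least 20 percentage points higher on both plates was found for 5 of 27 early response genes present in at least 10% of cells, where 0.594% of 6397 genes had it. It was found for 0 of 8 heat shock genes, for 1 of 13 upstream regulators and for 2 of 12 activation genes. A rise of 20 points was out of reach for genes present in nearly all cells with none. Among the heat shock genes these include Hspa8 (94.5% in WT and 93.05% in PD-1-/-) and Hsp90ab1 (95.9% and 94.4%). The early response gene Btg1 (96.6% and 96.03%) and the activation gene Ccl5 (93.8% and 93.7%) are others. A higher share of any size on both plates was found for 19 of 27 early response and 7 of 8 heat shock genes. It was found for 5 of 13 upstream regulators and 6 of 12 activation genes, against 26% of all genes. Over rows C to P, with 13 of the WT cells left, the limit of 20 points was passed by 3 early response genes, Fosl2, Tnfaip3 and Dusp5, by 0 heat shock genes, by 0 upstream regulators and by 1 activation gene, Ccl3, where 0.5% of genes did. The grouping and the limit of 20 points were set after the values had been seen, and the groups are small.

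The 5 early response genes were Tnfaip3, which restrains NF-kB signalling, Nfkbid, the AP-1 subunit Fosl2, the transcription factor Myc and the activation marker Cd69. Tnfaip3 was present in 12 of 17 WT cells, 70.6% (44.04 to 89.7), against 36.8%, and in 12 of 14 PD-1-/- cells, 85.7% (57.2 to 98.2), against 32.1%. Nfkbid was present in 47.1% against 19.9% in WT and in 78.6% against 21.2% in PD-1-/-, and Fosl2 in 58.8% against 27.1% and in 64.3% against 16.2%. For Myc the shares were 64.7% against 42.6% and 78.6% against 43.7%, and for Cd69 58.8% against 32.99% and 64.3% against 30.5%. Over rows C to P the WT shares were 76.9% against 36.3% for Tnfaip3 and 53.8% against 26.3% for Fosl2. They were 38.5% against 20.6% for Nfkbid, 61.5% against 43.1% for Myc and 46.2% against 33.97% for Cd69, all under 20 points apart.

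The upstream regulator was Crem, a CREB family factor, at 52.9% against 26.8% in WT and 57.1% against 20.5% in PD-1-/-, and the activation genes were Ccl3 and Ccl4. Ccl3 was present in 9 of 17 WT cells, 52.9% (27.8 to 77.02), against 14.8%, and in 8 of 14 PD-1-/- cells, 57.1% (28.9 to 82.3), against 20.5%. Over rows C to P the WT shares were 38.5% (5 of 13 cells) against 13.7% for Ccl3, 38.5% against 22.9% for Ccl4 and 38.5% against 25.6% for Crem. The inhibitory receptor Lag3 went opposite ways, at 5.88% against 14.1% in WT and 57.1% against 20.5% in PD-1-/-.

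Among the members themselves, Egr1 was present in 29.4% of WT cells with 2 or 3 Nr4a genes against 10.3% with none, and in 7 of 14 cells against 8.61% in PD-1-/-. Fos was present in 35.3% against 16.2% and in 42.9% against 13.9%. The WT shares over rows C to P were 15.4% against 10.7% for Egr1 and 38.5% against 16.4% for Fos. Junb was present in all 14 such PD-1-/- cells and in 15 of the 17 in WT.

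The median of recovered reads was 319733 in WT cells with 2 or 3 Nr4a genes and 331927 in those with none, and 382718 and 352168 in PD-1-/-. A Cd3 transcript was present in 2 of the 17 WT cells, 11.8%, against 17.9% of cells with none, and in 4 of the 14 PD-1-/- cells, 28.6%, against 23.2%. The part of depth and of Cd3 transcripts in these differences was not tested.

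**Figure D5:**
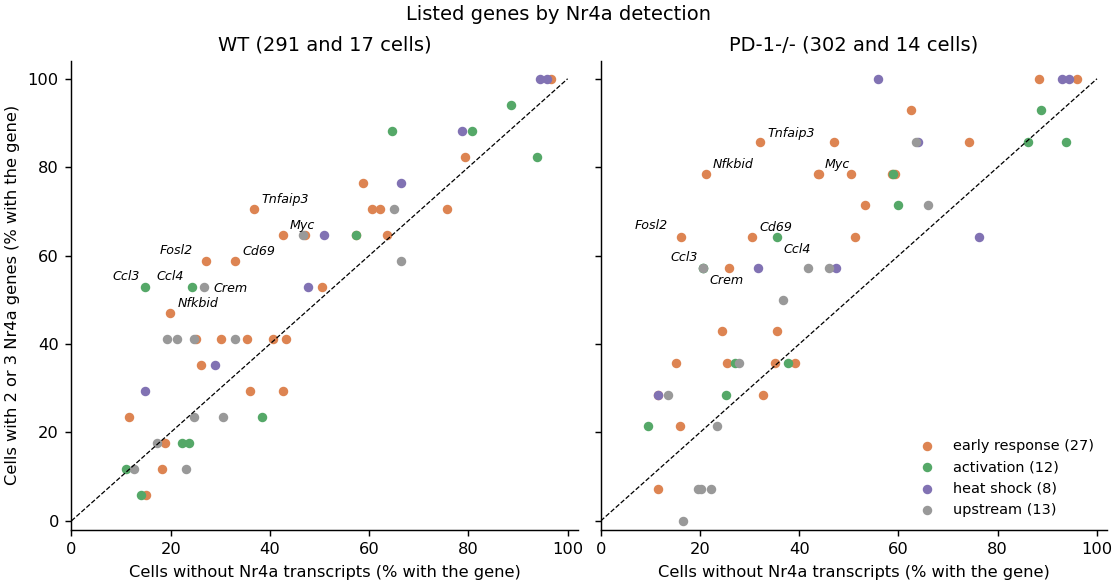
Percent of cells with each listed gene in cells with 2 or 3 Nr4a genes (vertical axis, 17 WT and 14 PD-1-/- cells) against cells with none (horizontal axis), with 1 point per gene colored by list and a dashed line of equal shares. The 8 genes with a share at least 20 points higher on both plates are named and lie well above the line.

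Across the whole count of the 10 genes, 12 of 27 early response genes had a correlation between presence and the count of at least 0.1 on both plates, where 1.56% of 6397 genes did. They were Fosl2, Zfp36l1, Btg1, Dusp5, Dusp6, Nfkbia, Nfkbid, Nfkbiz, Tnfaip3, Cd69, Rgs1 and Ppp1r15a. Of the heat shock genes 2 of 8 did, Hspa8 and Hsph1, of the upstream regulators 0 of 13, and of the activation genes 2 of 12, Ccl3 and Ccl4. After thinning to 100000 reads the counts were 6 of 25, 0 of 7, 0 of 5 and 2 of 11, against 0.829% of 5309 genes. Cells of a plate share its library preparation and these correlations are weak, so they describe the plates.

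Between the plates the early response list was balanced, with 4 of 36 genes at least 1.5-fold higher in PD-1-/- and 4 in WT, against 11% and 14% of all entries, and a median log2 ratio of -0.04. Atf3 (1.62), Egr3 (0.81) and Egr2 (0.79), relatives of AP-1 and Egr1, were higher in PD-1-/- with Zfp36 (0.63). Fosl1 (-0.97), Gadd45b (-0.81), Maff (-0.71) and Fosl2 (-0.61) were higher in WT. Of 15 activation genes, 4 were higher in PD-1-/- and 0 in WT, against the same 11% and 14%, namely Tnfrsf4 (1.26), Ccl3 (1.01), Lag3 (0.93) and Ccl4 (0.87). Of 16 upstream regulators 2 were higher in PD-1-/-, Mapk14 (0.78) and Elk1 (0.67), and 2 in WT, Mapk8 (-1.01) and Nfatc3 (-0.88), again against 11% and 14%. Of 10 heat shock genes 0 passed 1.5-fold in either direction. Several of these ratios rest on few cells: on the WT and PD-1-/- plates Fosl1 was present in 0.833% and 0.273% of cells, Atf3 in 1.94% and 3.28%, Tnfrsf4 in 1.39% and 3.28%, and Egr3 in 2.22% and 4.37%.

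Over all genes present in at least 20% of WT cells, the 10 with the highest Spearman correlation with the number of members in WT lay between 0.18 and 0.20, and the PD-1-/- plate, which did not choose them, gave values from -0.10 to 0.23 for them. Of these 10, Xcl1 (0.18 in WT and 0.23 in PD-1-/-) and the heat shock gene Hspa8 (0.20 and 0.15) were within the top 5% of genes in PD-1-/-. The kinase Map3k8 had 0.19 and 0.11. For each member the 2 closest genes in WT were taken to PD-1-/- in the same way, and 14 of these 20 values were above 0. Ccl4 was among them for Egr1, at 0.22 and 0.24, and for Nr4a1, at 0.24 and 0.18. The other 18 values lay between -0.16 and 0.10 in PD-1-/-.

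In cells with Cxcr6, a chemokine receptor of tissue-resident lymphocytes, Nr4a1 and Nr4a2 had lower shares than in the other cells of the plate. Nr4a2 was present in 1 of 28 WT cells with Cxcr6, 3.57% (0.0904 to 18.3), against 10.5% without it, and in 2 of 77 PD-1-/- cells, 2.60% (0.316 to 9.07), against 15.6% (11.6 to 20.3). Nr4a1 was at 3.57% against 10.5% in WT and at 2.60% against 6.92% in PD-1-/-. In cells with S1pr5, a receptor that guides NK cell egress, Nr4a1 was at 3.70% against 11.8% without it on the WT plate and at 3.23% against 6.96% on the PD-1-/- plate. These rest on 1 to 3 cells with the gene in each class. Some other members were lower on both plates too: Nr4a3, Jun and Ier2 in cells with Cxcr6, and Fosb, Jun, Nr4a3 and Dusp1 in cells with S1pr5. How many of all genes were lower on both plates was not counted, so no pattern is read from this list. Ier2 differed little for Cxcr6, at 61.04% against 61.9% in PD-1-/-. Jun was at 25% against 31.9% in WT and 19.5% against 20.07% in PD-1-/- for Cxcr6. Dusp1 was at 24.7% against 33.7% and 23.7% against 30.04% for S1pr5. The rest did not share this order. In cells with Cxcr6, Fosb was at 17.9% against 11.1% in WT and at 10.4% against 4.15% in PD-1-/-, and Egr1 at 21.4% against 10.8% and at 6.49% against 12.8%. A count of 5 or more of the 10 was reached by 7 of the 28 WT cells with Cxcr6, 25% (10.7 to 44.9), against 11.7% without it, and by 5.19% against 7.61% in PD-1-/-.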

How the data were processed

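Single NK cells were sorted into 384-well plates, 1 plate per genotype, and sequenced by SMART-Seq2, which reads whole transcripts without molecular identifiers or strand. The authors deposited RPKM values per gene and well. The submitters' processing notes list TopHat and Cufflinks and the builds mm9 and mm10, with no role or order, and the counting tool is not given in the sources used here. Wells were assigned to genotypes by their labels, and 24490 entries were read, of which 771 carry a symbol used more than once.

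Wells with 1000 to 3500 genes above 0 were kept, 360 of 384 in WT and 366 of 384 in PD-1-/-. A gene was called present above 0 RPKM. Low RPKM values of a gene step by what 1 read is worth, and whole reads were recovered from these steps for 10062 entries whose unit held for at least 80% of low values in at least 8 wells. Of 694585 values below 60 reads 98.98% were whole within 0.0003. The unit of Nr4a2 is approximate, since its steps were of more than 1 size. Recovered reads were used as depth (1439 to 506126 per WT cell and 1944 to 600311 per PD-1-/- cell). They were also used to thin 335 WT and 352 PD-1-/- cells to 100000 reads, leaving out 25 and 14 cells with fewer recovered reads. The lowest totals are low for cells with over 1000 genes above 0, and the read unit of those wells may be off. This touches the depth and thinning values only. Doublets were not called beyond the limit of 3500 genes.

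Shares carry exact Clopper-Pearson intervals, and ratios of mean RPKM use a pseudocount of 1 RPKM over 12030 entries with a mean of at least 1 RPKM on a plate. No test was run between genotypes or over cells. The members, the gene lists and the markers were chosen with earlier results of these data known. Named genes were the 10 members, Ifng, Xcl1, Pdcd1 and the class genes, the genes of each list with the highest and lowest ratios and correlations, and the WT genes most correlated with the members. Ccl3 and Ccl4 as partners, the grouping by Nr4a genes, its limit of 20 points, the comparison of Xcl1 levels, the thinned list correlations, the values for listed genes without plate rows A and B and the motif TGACG were added after values or sequences had been seen, and so were the names of genes passing the limit of 20 points or past 1.5-fold beyond that rule. Scripts were tested on simulated data. Python 3.11.15 was used with numpy 2.4.6, pandas 2.3.3, scipy 1.17.1 and matplotlib 3.10.9. Promoter windows came from RefSeq GRCm38.p6, and gene overlaps from a GENCODE annotation of GRCm38.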

Additional observations from a re-analysis of the deposited data

Results flagged for a closer look

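The difference in the share of cells with Pdcd1 between cells with 5 or more and cells with 0 to 2 of the 10 genes had opposite signs on the plates, 1.42 percentage points in WT and -4.43 in PD-1-/-. The difference between the plates was not tested. It rests on 2 Pdcd1 cells with 5 or more and 5 with 0 to 2 of the genes in WT, all in plate rows A and B, and on 2 and 24 in PD-1-/-.

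Among the wells left out for having more than 3500 genes above 0, 2 of 16 WT wells and 0 of 14 PD-1-/- wells held 5 or more of the 10 genes. In these wells Junb was present in 14 of 16 and 13 of 14, and Nr4a3 in 4 and 1.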

How the results depend on the processing

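No paired analysis was possible because each genotype is 1 pool on 1 plate, and the cell numbers in the sample titles pair nothing between plates. Of the values recomputed for the main comparisons 13 moved past their counting interval or by over 1.5 times a count. The share of WT cells with 5 or more of the 10 genes, 12.8%, was 7.50% with presence set at 10 RPKM, 17.2% in cells above the median of detected genes and 8.33% in those at or below it. The 6 pairs with a phi of at least 0.1 on both plates became 11 over rows A to H, 3 over rows I to P and 10 in cells at or below the median of detected genes. The Ifng difference in WT, 20.1 points, was 36.3 over rows A to H, 3.16 over rows I to P, 2.01 above and 52.7 at or below that median, and 44.4 for 6 or more against 0 to 3 genes, where the groups hold 15 to 31 cells on the higher side. At or below the median the Xcl1 share difference was 27.4 points in WT, against 11.1, and 37.96 in PD-1-/-, against 28.7. Above the median it was -3.14 and 17.3. Besides that WT value, 2 differences changed sign: Ifng in PD-1-/-, 6.84 points, was -4.76 above the median, and Pdcd1 in WT, 1.42, was -1.03 at or below it. The cause was not tested. The 4 members past 1.5-fold stand beside 24.95% of all entries past it in either direction. Recovered reads are lower limits of depth, since entries without a unit are left out, and with 14 to 46 cells in the smaller groups only large differences in share can be seen.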

Other observations

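Zinc finger relatives of Egr1 that few cells held went with the Nr4a genes too. Egr2 was present in 3 of 17 WT cells with 2 or 3 Nr4a genes, 17.6% (3.80 to 43.4), against 5.15% of cells with none, and in 5 of 14 PD-1-/- cells, 35.7% (12.8 to 64.9), against 5.96%. Egr3 was present in 2 of 17, 11.8% (1.46 to 36.4), against 1.37% in WT, and in 6 of 14, 42.9% (17.7 to 71.1), against 1.66% in PD-1-/-. Without plate rows A and B the WT shares were 15.4% against 4.58% for Egr2 and 7.69% against 1.53% for Egr3. Both genes were named after their values had been seen.

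The single highest Xcl1 and Ccl4 levels of each plate were found in cells with all 3 Nr4a genes, but other such cells held little or none. The WT cell with the most Xcl1 on its plate, 35178 RPKM, also had the most Ccl4, 48169 RPKM, and held 164.6 RPKM of Nr4a1, 529 of Nr4a2 and 200.8 of Nr4a3 but no Fos, Fosb, Jun or Dusp1. The PD-1-/- cell with the most Xcl1, 27322 RPKM, held all 3 Nr4a genes and no Fos, Fosb, Jun or Ccl4. That cell also had a Cd3 transcript and 84.4 RPKM of Pdcd1. The PD-1-/- cell with the most Ccl4, 76352 RPKM, had the highest Nr4a3 level of its plate, 724 RPKM, and no Xcl1. Of the other cells with all 3 Nr4a genes, WT cells with 1599 and 1436 RPKM of Xcl1 held no Ccl4. A PD-1-/- cell with 8071 RPKM of Xcl1 held no Ccl4 either, and another had 564 RPKM of Xcl1.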
